A study of Homo sapiens with 8 samples.

Results

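A set of 10 genes that classical pancreatic tumour cells use at their surface or in their mucus layer is described here by the H3K27ac peaks around them in CFPAC1 cells. They are the transmembrane mucins MUC1 and MUC13, the carcinoembryonic antigen family members CEACAM5 and CEACAM6, the tetraspanin TSPAN8, the cadherins CDH17 and CDH1, the mucin-folding protein AGR2, the galectin LGALS4 and the aspartic protease CTSE. A peak was taken as belonging to a gene when the deposited table named that gene as the transcription start site (TSS) inside the peak, when the gene was the nearest TSS on either side within 50 kb, or when the peak overlapped the RefSeq gene on GRCh38. This gave 26 of the 31961 peaks in the table, with 1 to 5 peaks per gene counting 3 peaks that CEACAM5 and CEACAM6 share. The rule uses gene names and positions; the genes themselves were proposed with earlier results of these data known.

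The assay was ChIP-seq for H3K27ac, an acetylation of histone H3 that marks promoters and enhancers in use, with the antibody ab4729. CFPAC1 is a long-established line of human pancreatic ductal adenocarcinoma cells, and each clone was isolated by dilution after lentiviral infection. The groups were IRF1-guide clones 11 and 13 with hIFNb, the same clones untreated (UT), control clones 1 and 4 with hIFNb, and the same control clones untreated. IRF1-guide clones carried a lentiviral CRISPR plasmid with a guide against IRF1, an interferon-regulated transcription factor, and control clones carried lentiCRISPRv2 with no guide named. hIFNb, read here as human interferon beta, was given for 2 h. All 4 clones share the infection with a CRISPR plasmid, each of the 4 groups holds 2 libraries, and the labels do not say whether the IRF1 protein is lost. Values are scores, which are the authors' normalised peak counts rounded to whole numbers, and their totals were between 3277561 and 3460390 per library. The reads behind a score are unknown. A lower score from fewer cells carrying the mark and from less of the mark in each cell cannot be told apart.

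Membrane mucins such as MUC1 and MUC13 form a glycosylated barrier at the apical face of ductal and intestinal cells, and AGR2, a protein disulfide isomerase of the endoplasmic reticulum, is needed for mucin folding in mice. CEACAM5 and CEACAM6 are membrane-anchored adhesion glycoproteins, TSPAN8 organises membrane microdomains, and LGALS4 binds glycans of the gut epithelium. CDH1 (E-cadherin) is the main cadherin of epithelial adherens junctions, while CDH17 is the liver-intestine cadherin. In classical pancreatic ductal adenocarcinoma these genes mark tumours that retain epithelial, partly gastrointestinal features. Interferon beta acts through STAT and IRF factors, and interferon-stimulated genes gain acetylation within hours.

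The promoters shown are from genes with H3K27ac on the TSS. Either that TSS peak passed for hIFNb over all clones in either fit described below, or the gene neighbours another member. RefSeq promoters on GRCh38.p14 were found for 8 of the 10 genes. CDH17 and CDH1 had none, so the motif search leaves them out. Each line gives the 250 bases before the TSS, 5′ to 3′ in the direction of transcription, with the motif matches named afterwards in capitals.
TSPAN8, chr12:71158000-71158249, minus strand: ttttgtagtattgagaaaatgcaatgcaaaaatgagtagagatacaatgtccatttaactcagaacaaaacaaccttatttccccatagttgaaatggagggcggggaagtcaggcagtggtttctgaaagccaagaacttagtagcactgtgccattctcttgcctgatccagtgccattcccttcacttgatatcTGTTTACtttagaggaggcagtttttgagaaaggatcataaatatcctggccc
AGR2, chr7:16805000-16805249, minus strand: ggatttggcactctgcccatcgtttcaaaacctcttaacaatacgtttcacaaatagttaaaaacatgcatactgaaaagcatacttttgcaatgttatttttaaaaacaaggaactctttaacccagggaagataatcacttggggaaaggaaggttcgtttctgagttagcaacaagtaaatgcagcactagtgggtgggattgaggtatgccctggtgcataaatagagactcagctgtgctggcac
MUC1, chr1:155192916-155193165, minus strand: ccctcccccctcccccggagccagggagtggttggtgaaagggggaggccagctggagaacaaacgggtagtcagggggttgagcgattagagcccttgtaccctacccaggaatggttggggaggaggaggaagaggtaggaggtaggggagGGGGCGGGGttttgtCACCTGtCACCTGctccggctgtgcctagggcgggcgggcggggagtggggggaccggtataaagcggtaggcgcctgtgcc
CEACAM5, chr19:41708376-41708625, plus strand: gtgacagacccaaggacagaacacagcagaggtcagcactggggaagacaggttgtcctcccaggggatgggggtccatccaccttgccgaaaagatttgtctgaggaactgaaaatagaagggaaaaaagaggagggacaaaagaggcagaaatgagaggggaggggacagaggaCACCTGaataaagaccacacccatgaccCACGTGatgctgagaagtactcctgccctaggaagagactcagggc
CEACAM6, chr19:41755280-41755529, plus strand: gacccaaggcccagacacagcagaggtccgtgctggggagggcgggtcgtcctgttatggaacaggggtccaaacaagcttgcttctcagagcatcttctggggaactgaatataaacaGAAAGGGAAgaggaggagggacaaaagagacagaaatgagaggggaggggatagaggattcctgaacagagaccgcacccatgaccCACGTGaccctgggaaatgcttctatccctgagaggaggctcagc

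The capitals mark exact letters found on either strand. TSPAN8 held TGTTTAC, the letters read by FOXA factors, 53 bases before its TSS, and 2.98% of all 35116 promoters of the same length hold that motif. The AGR2 promoter held none of the motifs named here. MUC1 held GGGGCGGGG (KLF and SP factors, 15.1% of promoters) at base -97 and CACCTG (the E-box of SNAI and ZEB repressors, 17.5%) at bases -82 and -75. CEACAM5 held CACCTG at base -74 and the E-box CACGTG (6.34%) at base -46. CEACAM6 held the same CACGTG at base -45, and GAAANNGAA, the core of the interferon-stimulated response element (6.88%), at base -131. No match of one motif overlapped a match of another. Shifted by 1 base and compared without gaps, these neighbouring promoters had the same letter at 140 of 249 positions (56.2%). An insertion or deletion breaks such a comparison, so this share is not their identity in a gapped alignment, which was not made. Among the 3 promoters not printed, LGALS4 held CACCTG on the opposite strand at base -175, MUC13 held the AP-1 letters TGANTCA (6.57%) at base -178, and CTSE held none. None of the 8 member promoters held TTCNNNGAA, the letters of STAT factors, which 6.57% of all promoters hold. The letters of CDX factors, TTTATNG (8.93%), were also in none. The motif for factors of the GATA family was searched for as the letters AGATAAG, held by 2.36% of all promoters, with the same outcome.

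The labelled cell type was set against marker genes. Of 7 ductal markers, 5 had a peak within 2 kb of the TSS, with mean scores of 16.5 to 35.5 per kb of peak (KRT7, EPCAM, SOX9, and KRT8 and KRT18 in a shared peak), while KRT19 lay inside a peak without a TSS position to measure from and CFTR had no such peak. Their summed scores were 1327 to 1499 in IRF1-guide clones with hIFNb, 1242 to 1353 in IRF1-guide clones without it, 1326 to 1598 in control clones with hIFNb and 1380 to 1606 in control clones without it. A TSS peak was found for 1 of 7 fibroblast markers (COL1A1), 2 of 6 immune markers (CD14 and CD68), 1 of 4 endothelial markers (PECAM1), 2 of 5 acinar markers (CPA1 and CELA3A) and 0 of 4 islet markers. PTPRC, CD3E, CDH5, VWF, COL1A2, COL3A1, PRSS1 and INS were among those with none. Mean scores per kb of these TSS peaks were 9.51 for COL1A1, 11.9 for CD14, 14.6 for CD68, 14.9 for PECAM1, 24.1 for CPA1 and 70.9 for CELA3A. The CPA1 value lay within the ductal range and the CELA3A value above it. Over the whole peak the mean score was 814.5 at CPA1 and 5341.2 at CELA3A, where the peak is broad. The acinar sum is therefore mostly that of the CELA3A peak. The acinar sum was 6151 to 6275 in IRF1-guide clones with hIFNb and 6671 to 7058 without it, and 5012 to 5531 in control clones with hIFNb and 6178 to 6370 without it. The immune sum was 254 to 317 in IRF1-guide clones with hIFNb and 190 to 226 without it, and 199 to 203 in control clones with hIFNb and 148 to 171 without it. The endothelial sum was 206 to 271 in IRF1-guide clones with hIFNb and 242 to 300 without it, and 162 to 214 in control clones with hIFNb and 234 to 270 without it. The fibroblast sum, of COL1A1 alone, was 64 to 81 in IRF1-guide clones with hIFNb and 58 to 80 without it, and 73 to 75 in control clones with hIFNb and 25 to 47 without it. A further COL1A1 peak, 16.4 kb from its TSS, rose by 2.16 ± 0.39 on the log2 scale over all clones (adjusted p = 0.00741 by limma), a call that held in 8 of 8 fits without 1 library. A peak of the fibroblast gene LUM fell by 1.19 ± 0.30 (adjusted p = 0.0329, held in 2 of 8) and one 29.7 kb from the ductal gene SOX9 by 0.90 ± 0.23 (adjusted p = 0.0397, held in 0 of 8). The COL1A1 peak 16.4 kb from its TSS scored 29 and 27 in IRF1-guide clones 11 and 13 with hIFNb, against 19 and 10 without. In control clones 1 and 4 it scored 238 and 109 with hIFNb, against 27 and 8 without. The part of these marker differences in the changes described below was not tested.

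Every gene except MUC13 had H3K27ac at or beside its TSS. The peaks of MUC1, CEACAM5, CEACAM6, TSPAN8, CDH17, AGR2, LGALS4 and CTSE contained the TSS, and the widest CDH1 peak began 0.2 kb inside the gene. MUC13 had a single peak, chr3:124974941-124977549, 40.2 kb upstream of its TSS, and none over its gene body. Several peaks also hold the TSS of another gene. The MUC1 promoter peak holds that of THBS3-AS1, an antisense RNA, and a peak 12.5 kb downstream of the MUC1 TSS holds that of TRIM46. Peaks assigned to CTSE hold the TSS of RAB7B and of RHEX, the distal LGALS4 peak holds that of ECH1, the wide CDH1 peak that of RNA5SP429, and the CEACAM6 peak that of LOC112268252. A small AGR2 peak 49.8 kb away lies 0.388 kb from the TSS of TSPAN13. Distance alone links a peak to a gene here.

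**Figure D1:**
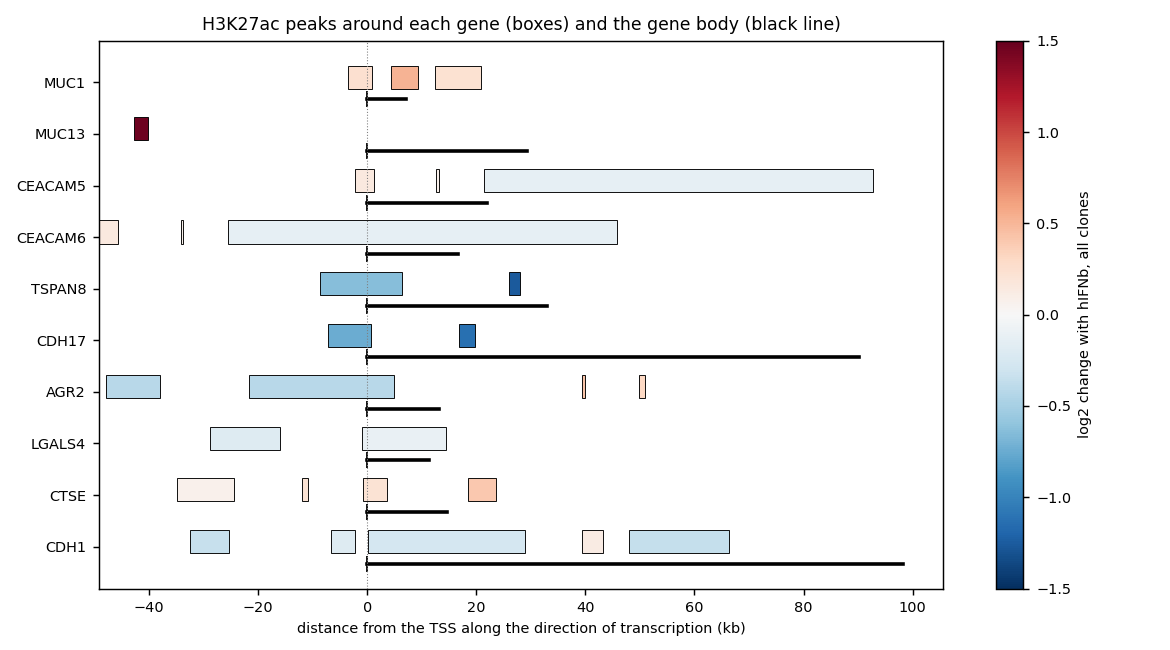
Position of the H3K27ac peaks (boxes) around the 10 genes, as distance from the TSS in kb along the direction of transcription, with the gene body as a black line and the box colour giving the log2 change with hIFNb over all clones. Both peaks of TSPAN8 and both of CDH17 are blue (between -0.64 and -1.26), the MUC13 peak 40.2 kb upstream is red (1.47), and the CEACAM6 peak spans 71.3 kb.

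Peak widths differed widely, so levels were compared per kb of peak. At the peak nearest the TSS, MUC1 had the highest mean score, 44.3 ± 8.46 per kb (SD, n = 8 libraries), above 99.4% of all peaks. CDH1 followed with 24.8 ± 5.04 per kb and CTSE with 24.1 ± 6.18 per kb. LGALS4 (21.9 ± 2.66 per kb), CEACAM6 (21.2 ± 3.59 per kb), TSPAN8 (19.0 ± 4.85 per kb), AGR2 (17.3 ± 5.18 per kb) and CEACAM5 (15 ± 3.46 per kb) came next, all above the median of all peaks of 13.7 per kb. Among the 9903 peaks listed with a TSS inside, LGALS4 lay above 72.9%, CEACAM6 above 69.6% and TSPAN8 above 58.4%. AGR2 lay above 48.5% of those peaks and CEACAM5 above 33.3%, so both were below their middle. CDH17 (8.43 ± 2.7 per kb) and the distant MUC13 peak (5.89 ± 4.87 per kb) lay above 9.55% and 1.18% of all peaks. In this order the MUC1 libraries did not overlap those of CDH1, and every other pair of neighbours overlapped. The largest domain was that of CEACAM6, chr19:41730094-41801348, which begins over the last bases of CEACAM5 and covers the whole of CEACAM6. AGR2 (26.6 kb) and CDH1 (28.7 kb) also had wide domains, while the TSS peaks of MUC1, CEACAM5 and CTSE were 4.45 kb, 3.53 kb and 4.33 kb wide.

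With hIFNb, H3K27ac rose at the distal MUC13 peak and fell at TSPAN8 and CDH17. In limma's group-means model of the 8 libraries, with Benjamini-Hochberg adjustment over all 31961 peaks, 1 of the 26 peaks rose (3.85%, against 6.55% of all peaks) and 3 fell (11.5%, against 2.58% of all peaks) at an adjusted p under 0.05. A second fit took the clone as a block, so that each library with hIFNb was set against the untreated library of the same clone. There 4 of the 26 rose (15.4%, against 16.6% of all peaks) and 10 fell (38.5%, against 15.9%). The median log2 change was -0.02 over the 26 peaks and 0.00 over all peaks, with 13 of the 26 below 0. Scores were lower with hIFNb in each of the 4 clones at 11 peaks (42.3%, against 20.4% of all peaks), and higher in each of the 4 at 3 peaks (11.5%, against 19.9%). At 2 peaks the 4 libraries with hIFNb all lay below the 4 without (7.69%, against 5.15% of all peaks), and at 0 peaks all above (against 7.22%). As points of reference, the interferon-induced gene RSAD2 rose at its TSS peak by 3.52 ± 0.20 on the log2 scale and ISG15, whose peak is listed with the TSS of RPL39P12, by 1.13 ± 0.14, while GAPDH (0.07 ± 0.12) and ACTB (0.15 ± 0.19) had adjusted p of 0.777 and 0.671.

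**Figure D2:**
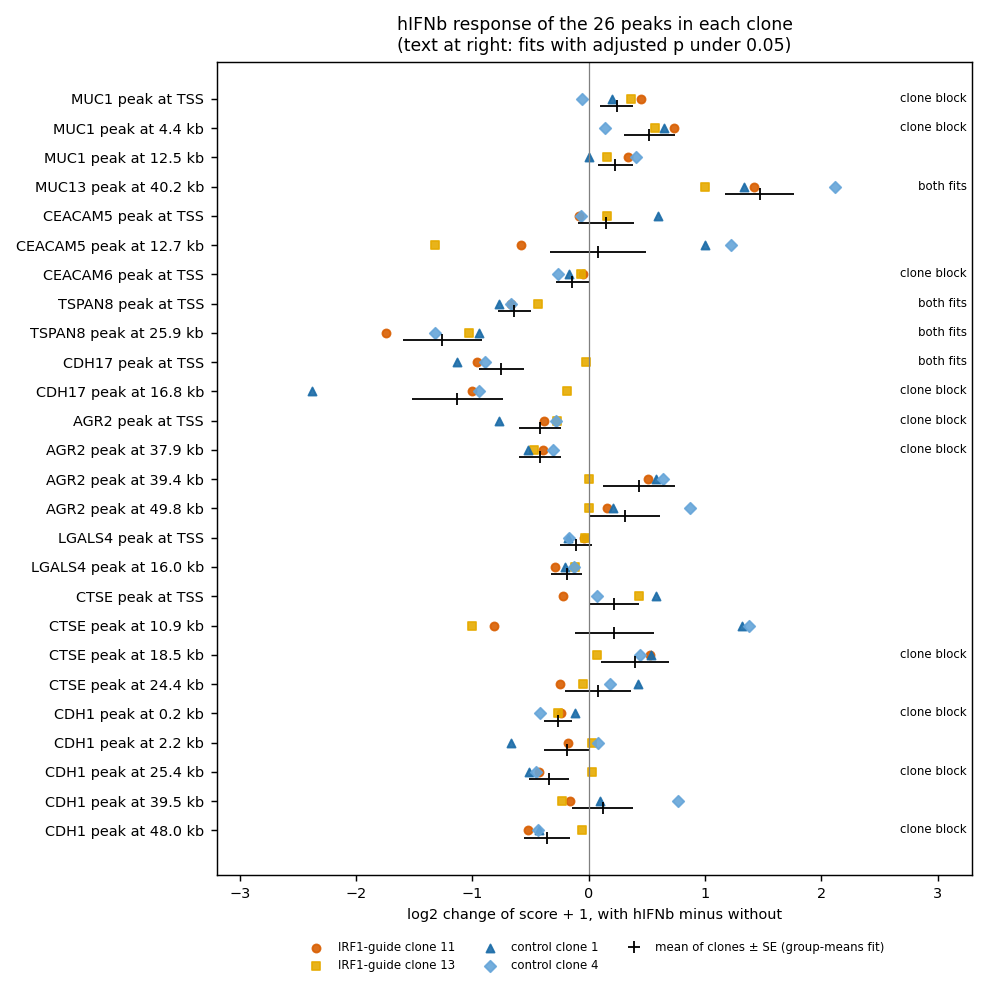
Log2 change of score + 1 (with hIFNb minus without) at each of the 26 peaks, with 1 symbol per clone and a black bar for the mean of the clones ± SE from the group-means fit. Words at the right name the fits with an adjusted p under 0.05; both TSPAN8 peaks lie left of 0 in all 4 clones and the MUC13 peak lies right of 0 in all 4.

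TSPAN8, a tetraspanin of epithelial cells and their vesicles, fell with hIFNb at both of its peaks. Its TSS peak, chr12:71151588-71166732, scored 214 and 280 in IRF1-guide clones 11 and 13 with hIFNb, against 342 and 381 in the same clones without it. In control clones 1 and 4 it scored 214 and 194 with hIFNb, against 365 and 310 without. All 4 libraries with hIFNb were below all 4 without it, and the log2 change over all clones was -0.64 ± 0.14 (SE, adjusted p = 0.0171 by limma), with the clone as a block adjusted p = 5.47e-07. A smaller peak inside the gene, 25.9 kb from the TSS at chr12:71129964-71132067, scored 8 and 21 in IRF1-guide clones with hIFNb, against 29 and 44 without. In control clones it scored 12 and 7 with hIFNb, against 24 and 19 without. It was lower with hIFNb in every clone and fell by 1.26 ± 0.34 on the log2 scale (adjusted p = 0.0462 by limma, 0.000496 with the clone as a block). The promoter printed above, with its FOXA letters, lies within the TSS peak. Without the hIFNb library of clone 11, the untreated library of clone 13, the untreated library of clone 1 or the hIFNb library of clone 4, the adjusted p of the TSS peak was 0.0668, 0.0564, 0.0728 and 0.0558 in that order. The call on the smaller peak was lost without any single library other than the hIFNb library of clone 13, with adjusted p of 0.0667 to 0.135. Without the mean-variance trend in the fit, neither TSPAN8 peak passed (adjusted p = 0.0684 at the TSS and 0.0667 inside the gene).

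CDH17, the liver-intestine cadherin, also fell with hIFNb at its TSS, less evenly between clones. Its TSS peak, chr8:94216503-94224476, scored 51 and 69 in IRF1-guide clones 11 and 13 with hIFNb, against 100 and 70 without, and 37 and 45 in control clones 1 and 4 with hIFNb, against 82 and 84 without. The 4 libraries with hIFNb lay below the 4 without, but by a single unit in clone 13. The log2 change over all clones was -0.75 ± 0.19 (adjusted p = 0.0386 by limma, 0.000491 with the clone as a block). That call held when either library of clone 13 was left out and was lost without any other library, with adjusted p of 0.0621 to 0.128. It was also lost without the mean-variance trend (adjusted p = 0.0656). A peak inside the gene, 16.8 kb from the TSS, scored 14 and 41 in IRF1-guide clones with hIFNb, against 29 and 47 without. In control clones it scored 8 and 22 with hIFNb, against 46 and 43 without. It was lower with hIFNb in every clone, at a log2 change of -1.13 ± 0.39, which passed with the clone as a block (adjusted p = 0.000574) and not in the group-means model (adjusted p = 0.0975); without the hIFNb library of clone 13 that model gave 0.0454.

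MUC13, a transmembrane mucin, had its rise at the upstream peak. The score was 15 and 9 in IRF1-guide clones 11 and 13 with hIFNb, against 5 and 4 without. In control clones 1 and 4 it was 32 and 38 with hIFNb, against 12 and 8 without. Every clone was higher with hIFNb, while the scores of control clones without hIFNb overlapped those of IRF1-guide clones with it. The log2 change over all clones was 1.47 ± 0.30 (adjusted p = 0.015 by limma, 0.00059 with the clone as a block). Leaving out the hIFNb library of clone 11, the hIFNb library of clone 4 or the untreated library of clone 4 gave adjusted p of 0.0617, 0.0561 and 0.056. With scores this low the change on the log2(score + 1) scale understates the ratio. No MUC13 peak lay at the promoter whose AP-1 letters are given above.

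MUC1, the other transmembrane mucin, passed with hIFNb only in the fit with the clone as a block. Its TSS peak, chr1:155191963-155196414, scored 262 and 242 in IRF1-guide clones 11 and 13 with hIFNb, against 192 and 188 without, and 168 and 186 in control clones 1 and 4 with hIFNb, against 146 and 194 without. Clone 4 alone was lower with hIFNb. The log2 change over all clones was 0.24 ± 0.14 (adjusted p = 0.315 by limma, 0.0478 with the clone as a block). The peak 4.4 kb into the gene scored 77 and 97 in IRF1-guide clones with hIFNb, against 46 and 65 without, and 54 and 63 in control clones with hIFNb, against 34 and 57 without. It was higher with hIFNb in all 4 clones, by a log2 change of 0.52 ± 0.22 (adjusted p = 0.165 by limma, 0.00867 with the clone as a block). At the peak that holds the TRIM46 TSS the change was 0.23 ± 0.15, with adjusted p of 0.371 and 0.145 in these fits.

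**Figure D3:**
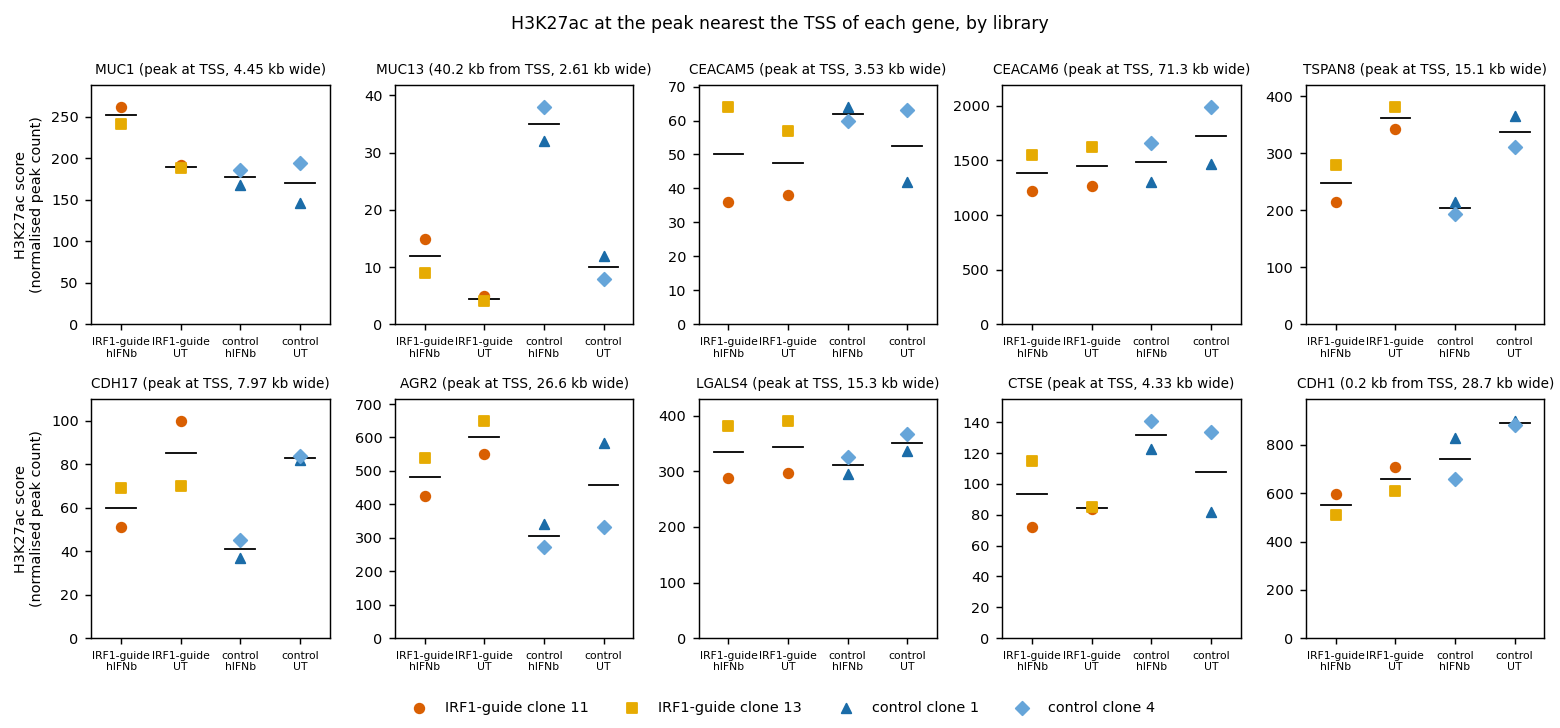
H3K27ac score (normalised peak count, linear axis from 0) at the peak nearest the TSS of each of the 10 genes, with 1 symbol per library and a black line for the mean of the 2 clones of a group. TSPAN8 and CDH17 have all 4 libraries with hIFNb below all 4 without it, and MUC13 has its highest scores (32 and 38) in control clones with hIFNb.

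AGR2, whose protein helps mucins fold, fell with hIFNb at its TSS and at an upstream peak in the fit with the clone as a block. The TSS peak, chr7:16800026-16826626, scored 424 and 540 in IRF1-guide clones 11 and 13 with hIFNb, against 551 and 650 without. In control clones 1 and 4 it scored 340 and 273 with hIFNb, against 582 and 332 without. Each clone was lower with hIFNb, while the clones' own levels spread more than that, with clone 4 below the others. The log2 change of -0.42 ± 0.18 passed with the clone as a block (adjusted p = 7.87e-05) and not in the group-means model (adjusted p = 0.17); without the untreated library of clone 4 that model gave 0.0491. A peak 37.9 kb upstream scored 169 and 163 in IRF1-guide clones with hIFNb, against 222 and 226 without, and 148 and 106 in control clones with hIFNb, against 212 and 132 without. It also moved down in each clone, by -0.42 ± 0.18 (adjusted p = 0.169 by limma, 0.00119 with the clone as a block). At the small downstream peaks, 39.4 kb and 49.8 kb from the TSS and nearer to TSPAN13, the log2 changes were 0.43 ± 0.31 and 0.31 ± 0.30, with adjusted p of 0.408 and 0.548. Scores there were between 6 and 29.

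CDH1, which encodes E-cadherin, fell at 3 of its 5 peaks in the fit with the clone as a block, and at 0 in the group-means model. The wide peak that begins just inside the gene, chr16:68737457-68766152, scored 597 and 509 in IRF1-guide clones 11 and 13 with hIFNb, against 707 and 608 without. In control clones 1 and 4 it scored 829 and 657 with hIFNb, against 900 and 882 without. The log2 change was -0.26 ± 0.12 (adjusted p = 0.197 by limma, 0.00181 with the clone as a block), and each clone was lower with hIFNb. A peak 48.0 kb into the gene changed by -0.36 ± 0.20 on the log2 scale (adjusted p = 0.292 by limma, 0.00255 with the clone as a block), again lower in each clone. An upstream peak 25.4 kb away changed by -0.34 ± 0.17 (adjusted p = 0.24 by limma, 0.033 with the clone as a block) and was lower in all clones but 13, where it scored 93 with hIFNb and 91 without. The peaks 2.2 kb upstream and 39.5 kb inside the gene had log2 changes of -0.19 ± 0.19 and 0.12 ± 0.26 and passed neither fit.

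CEACAM5 and CEACAM6, adhesion glycoproteins, had no peak called in the group-means model. The CEACAM6 domain scored 1218 and 1547 in IRF1-guide clones 11 and 13 with hIFNb, against 1264 and 1626 without, and 1306 and 1664 in control clones 1 and 4 with hIFNb, against 1465 and 1990 without. Its log2 change of -0.14 ± 0.14 had an adjusted p of 0.586 by limma and 0.0272 with the clone as a block, and the sign was the same in every clone. The CEACAM5 TSS peak, chr19:41706312-41709837, scored 36 and 64 in IRF1-guide clones with hIFNb, against 38 and 57 without, and 64 and 60 in control clones with hIFNb, against 42 and 63 without. Its log2 change of 0.15 ± 0.24 passed neither fit (adjusted p = 0.73 by limma). The CEACAM6 promoter printed above lies inside this domain. Because one broad peak covers CEACAM6 and the end of CEACAM5, its score cannot be divided between the genes.

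LGALS4, a galectin of the gut epithelium, had the narrowest log2 range of the 10 at the peak nearest the TSS. Its TSS peak scored 288 and 382 in IRF1-guide clones 11 and 13 with hIFNb, against 297 and 391 without, and 296 and 326 in control clones 1 and 4 with hIFNb, against 336 and 367 without. The log2 change was -0.11 ± 0.14 (adjusted p = 0.672 by limma, 0.277 with the clone as a block), with the same sign in every clone. The distal peak that holds the ECH1 TSS changed by -0.19 ± 0.13 (adjusted p = 0.39 and 0.064 in these fits).

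CTSE, a gastric-type aspartic protease, had no peak that passed the group-means model for hIFNb over all clones. Its TSS peak, chr1:206020286-206024614, scored 72 and 115 in IRF1-guide clones 11 and 13 with hIFNb, against 84 and 85 without, and 123 and 141 in control clones 1 and 4 with hIFNb, against 82 and 134 without. The log2 change was 0.22 ± 0.21 (adjusted p = 0.549 by limma). The peak that holds the RAB7B TSS scored 97 and 82 in IRF1-guide clones with hIFNb, against 67 and 78 without, and 63 and 131 in control clones with hIFNb, against 43 and 96 without. It was higher in every clone by a log2 change of 0.40 ± 0.29 (adjusted p = 0.417 by limma, 0.0233 with the clone as a block).

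Within a single genotype the log2 change rests on 4 libraries, while its spread is estimated from all 8. A call can therefore be lost by leaving out a library of the other genotype, with the log2 change unmoved. In IRF1-guide clones limma called 0 of the 26 peaks (against 1.2% of all peaks that rose and 0.025% that fell), with 3 at an unadjusted p under 0.05 (11.5%, against 12.7% of all peaks). With the clone as a block 2 rose, both at MUC1 (7.69%, against 7.44% of all peaks), and 4 fell, at TSPAN8 and AGR2 (15.4%, against 6.64%). In control clones 1 peak rose (3.85%, against 4.07% of all peaks), that of MUC13, by 1.73 ± 0.43 on the log2 scale (adjusted p = 0.0489). The fall calls there were 0 of 26 (against 0.676%), with 6 of the 26 peaks at an unadjusted p under 0.05 in either direction (23.1%, against 19.6%). The MUC13 call in control clones was lost without any single library, with adjusted p of 0.0529 to 0.238, and after quantile normalisation (1.63, adjusted p = 0.0591), where the CDH17 TSS peak passed in its place (-1.09 ± 0.27, adjusted p = 0.0481). With the clone as a block, control clones had 3 rises, at MUC13 and at CTSE 10.9 kb and 24.4 kb upstream (11.5%, against 13.4% of all peaks), and 10 falls (38.5%, against 11.3%). The 10 were at CEACAM6, TSPAN8, CDH17, AGR2 and CDH1.

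The difference between the responses of the genotypes was tested directly. Limma called 0 of the 26 peaks (against 0.0% of all peaks), with 2 at an unadjusted p under 0.05 (7.69%, against 3.94%). With the clone as a block 0 were called (against 0.763%), with 4 at an unadjusted p under 0.05 (15.4%, against 12.3%). At 4 of the 26 peaks both IRF1-guide clones were lower with hIFNb while both control clones were higher (15.4%, against 3.97% of all peaks), and at 0 the reverse held (against 3.8%). The peak 10.9 kb upstream of CTSE scored 3 and 5 in IRF1-guide clones 11 and 13 with hIFNb, against 6 and 11 without, and 19 and 25 in control clones 1 and 4 with hIFNb, against 7 and 9 without. Its difference of responses, IRF1-guide minus control, was -2.25 ± 0.68 on the log2 scale (unadjusted p = 0.00757, adjusted p = 1.0 by limma, 0.146 with the clone as a block). The 485-bp CEACAM5 peak, 12.7 kb into the gene, scored 3 and 1 in IRF1-guide clones with hIFNb, against 5 and 4 without, and 9 and 13 in control clones with hIFNb, against 4 and 5 without. Its difference was -2.06 ± 0.82 (unadjusted p = 0.03, adjusted p = 1.0). The others were the CTSE peak at the RHEX TSS (-0.45 ± 0.56) and the CDH1 peak 39.5 kb inside the gene (-0.63 ± 0.53). Over the 8 libraries the RHEX peak scored 207 to 523 and this CDH1 peak 28 to 101.

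IRF1-guide and control clones were then compared at the same treatment. With hIFNb, 1 of the 26 peaks was lower in IRF1-guide clones (3.85%, against 2.19% of all peaks) and 0 were higher (against 0.238%), with 7 at an unadjusted p under 0.05 (26.9%, against 16.3%). The peak was the one 10.9 kb upstream of CTSE, which averaged 4.0 ± 1.4 in IRF1-guide clones and 22.0 ± 4.2 in control clones (SD, n = 2 each). The log2 difference was -2.22 ± 0.48 (adjusted p = 0.0424 by limma). Only leaving out an untreated IRF1-guide library kept that call, and without each of the other 6 libraries the adjusted p was 0.0623 to 0.198. Without hIFNb the same peak averaged 8.5 ± 3.5 in IRF1-guide clones and 8.0 ± 1.4 in control clones, a log2 difference of 0.04 ± 0.48.

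**Figure D4:**
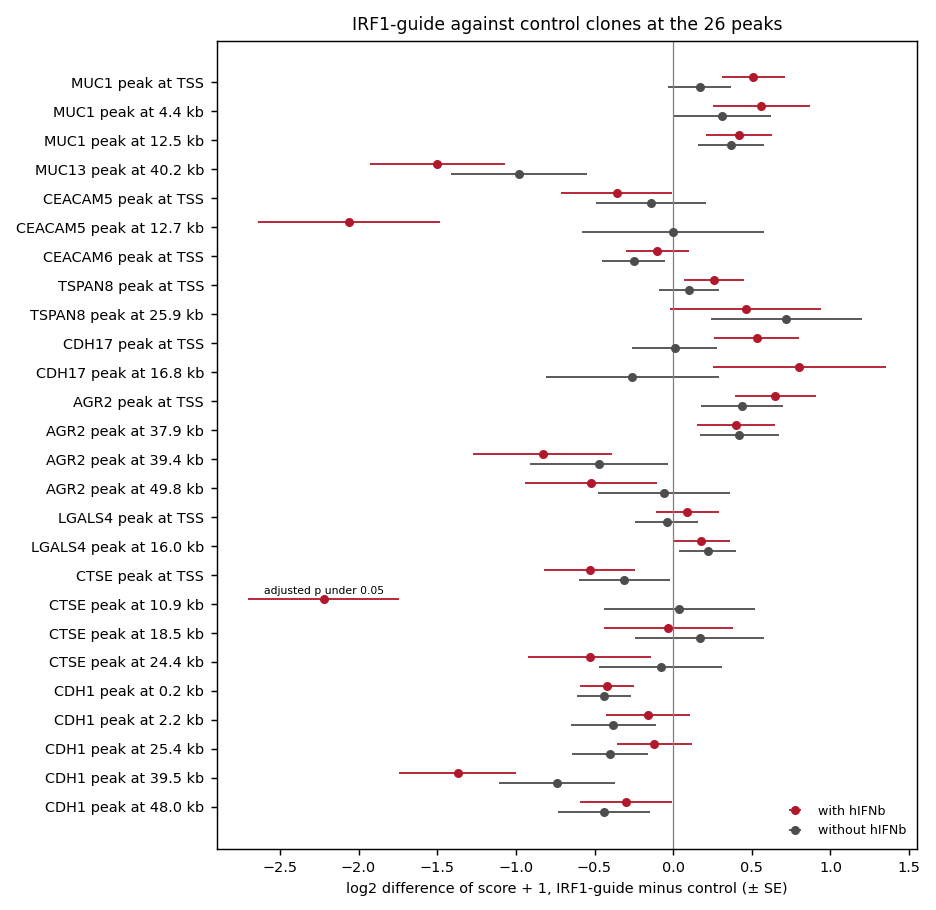
Log2 difference of score + 1 (IRF1-guide minus control) ± SE at each of the 26 peaks, in red with hIFNb and in grey without. The CTSE peak at 10.9 kb with hIFNb (-2.22) is the point with an adjusted p under 0.05, and the MUC1 points lie right of 0 while the points of the wide CDH1 peak lie left of it.

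Without hIFNb, 0 of the 26 peaks differed between the genotypes (against 0.0% of all peaks), with 2 at an unadjusted p under 0.05 (7.69%, against 12%). On clone means over both treatments, where each clone counts once, limma called 0 of 26 (against 0.516%), with 5 at an unadjusted p under 0.05 (19.2%, against 14.7%). The 4 IRF1-guide libraries lay all above the 4 control libraries at 0 of the 26 peaks (against 3.79% of all peaks) and all below at 0 (against 5.08%). The MUC13 peak averaged 12 ± 4.2 in IRF1-guide clones with hIFNb and 35.0 ± 4.2 in control clones with hIFNb, a log2 difference of -1.5 ± 0.43 that did not pass (adjusted p = 0.107). Over both treatments, on clone means, the difference at MUC13 was -1.24 ± 0.36 (adjusted p = 0.159). The CDH1 peak 39.5 kb inside the gene averaged 39.5 ± 16.3 in IRF1-guide clones with hIFNb and 99.5 ± 2.1 in control clones with hIFNb, a log2 difference of -1.37 ± 0.37 (adjusted p = 0.09), and on clone means over both treatments the difference there was -1.06 ± 0.31 (adjusted p = 0.167). For the wide CDH1 peak the difference on clone means was -0.43 ± 0.17 (adjusted p = 0.284), and for the AGR2 TSS peak 0.55 ± 0.22 (adjusted p = 0.304). The MUC1 TSS peak averaged 252.0 ± 14.1 in IRF1-guide clones with hIFNb and 177.0 ± 12.7 in control clones with hIFNb, at 0.51 ± 0.20 on the log2 scale (adjusted p = 0.231). With 2 clones per genotype, a difference that did not pass is not shown to be absent.

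Levels also differed between clones of the same genotype. Averaged over both treatments, the median absolute log2 difference between clones 13 and 11 was 0.32 over the 26 peaks and 0.28 over all peaks. Between clones 4 and 1 it was 0.36 over the 26 peaks and 0.27 over all peaks. The CTSE locus was among the most clone-dependent, since the peak at the RHEX TSS differed by 0.68 between clones 13 and 11 and by 0.95 between clones 4 and 1, and that at the RAB7B TSS by -0.01 and 1.09. The CDH17 peak 16.8 kb from its TSS differed by 1.08 between clones 13 and 11, the largest value of that pair, and by 0.63 between clones 4 and 1. TSPAN8 25.9 kb from its TSS differed by 0.94 between clones 13 and 11 and by -0.51 between clones 4 and 1. The CDH1 peak 39.5 kb inside the gene differed by -0.81 and -0.38 in these pairs. AGR2 at its TSS differed by 0.29 and -0.56 in these pairs. These are levels per clone and carry no test.

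The 3 genes whose peak nearest the TSS had the widest log2 range over libraries were taken, leaving their other peaks aside. The peaks at other TSS with the most similar pattern over the 8 libraries were found as a description. The 8 libraries come from 4 clones and share the treatment. For MUC13 they were MSRB2 (Pearson r of log2 scores 0.995) and LOC105372493 (0.993). For CDH17 they were LOC107986673 (0.968) and RPL36P5 (0.946), and for AGR2 LOC107984236 (0.989) and LOC105377352 (0.976). These are the 2 highest for each gene among at least 6471 candidate peaks.

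Related genes were read with the same distance rule, after removing peaks shared with the 10 genes. The classical list shares some genes with the mucin and junction lists, so a peak can be counted again in another list. Among 22 other mucin and mucin-layer genes, 3 of 43 peaks rose with hIFNb over all clones and 0 fell by limma (6.98% and 0.0%, against 6.55% and 2.58% of all peaks). In the clone-block fit there were 6 rises and 11 falls (14.0% and 25.6%, against 16.6% and 15.9% of all peaks). MUC21, a transmembrane mucin, had its peak at 23 and 11 in IRF1-guide clones 11 and 13 with hIFNb, against 5 and 3 without, and at 45 and 39 in control clones 1 and 4 with hIFNb, against 12 and 6 without (log2 change 1.98 ± 0.35, adjusted p = 0.00661). A peak 18.2 kb from SPDEF, a transcription factor of mucus-secreting cells, rose by 1.30 ± 0.31, and the TSS peak of MUC4, a transmembrane mucin, by 0.77 ± 0.20. MUC4 scored 1490 and 1048 in IRF1-guide clones with hIFNb, against 762 and 458 without, and 1905 and 1202 in control clones with hIFNb, against 1173 and 1030 without. The MUC21 call held without each of the 8 libraries in turn, the MUC4 call in 3 of 8 and the SPDEF call in 1 of 8.

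Among 37 other CEACAM, tetraspanin, galectin and cathepsin genes, 4 of 70 peaks rose and 2 fell (5.71% and 2.86%, against 6.55% and 2.58% of all peaks). The block fit gave 13 rises and 8 falls (18.6% and 11.4%, against 16.6% and 15.9%). A peak linked to CEACAM1, an adhesion molecule of the family of CEACAM5, scored 9 and 6 in IRF1-guide clones with hIFNb, against 2 and 4 without, and 53 and 31 in control clones with hIFNb, against 2 and 4 without (log2 change 2.27 ± 0.38, adjusted p = 0.00519). The promoter of LGALS9, a galectin, rose by 1.03 ± 0.16 (adjusted p = 0.003), and both calls held without each of the 8 libraries. Tetraspanins CD82 (0.79 ± 0.19) and CD9 (0.62 ± 0.16) rose, the opposite sign to TSPAN8, with calls that held in 2 of 8 and 1 of 8 such fits. The CD9 peak lies 16.0 kb from the CD9 TSS and holds that of LOC105369623. Among 37 junction and keratin genes 3 of 110 peaks rose and 1 fell (2.73% and 0.909%, against 6.55% and 2.58% of all peaks). In that block fit 10 peaks passed upward, or 9.09% against 16.6% of all peaks, and 22 passed downward, or 20% against 15.9%. Peaks of MARVELD2 (1.34 ± 0.27), GRHL2 (1.30 ± 0.34) and DSP (0.83 ± 0.21), genes of tight junctions, epithelial transcription and desmosomes, rose. The MARVELD2 peak lies 34.7 kb from its TSS, with scores of 7 to 36, and the GRHL2 peak had no TSS position to measure from. A peak 27.5 kb from the TSS of the tight junction scaffold TJP1 fell by 0.61 ± 0.16. The DSP peak is listed with the TSS of LOC101928076 inside it. The MARVELD2 call held in 7 of 8 fits that each left out 1 library, GRHL2 in 2, DSP in 1 and TJP1 in 1. Among 35 other genes of classical tumours 3 of 84 peaks rose and 2 fell (3.57% and 2.38%, against 6.55% and 2.58% of all peaks). The block fit gave 8 rises and 19 falls (9.52% and 22.6%, against 16.6% and 15.9%). Peaks 25.6 kb from CAPN8, a calpain protease, and 26.5 kb from MYO1A, a brush-border myosin, rose by 0.97 ± 0.24 and 0.83 ± 0.19. The MYO1A peak holds the TSS of NEMP1. A peak of TOX3, 94.5 kb from its TSS, fell by 1.26 ± 0.33. The CAPN8 call held in 3 of 8 leave-one-out fits, MYO1A in 2 and TOX3 in 1. A peak 19.9 kb from REG4, a secreted lectin of the gut, scored 162 and 182 in IRF1-guide clones 11 and 13 with hIFNb, against 257 and 260 without, and 162 and 213 in control clones 1 and 4 with hIFNb, against 318 and 334 without. It fell by 0.70 ± 0.13 on the log2 scale (adjusted p = 0.0108), a call that held without each of the 8 libraries in turn. The median log2 changes of the 4 lists were -0.12, 0.04, -0.08 and -0.11 in the order given, against 0.00 over all peaks. On clone means, 0 peaks of these lists differed between IRF1-guide and control clones by limma (against 0.516% of all peaks). With hIFNb, limma called 1 peak of the other mucin list (2.33%) and 1 of the classical list (1.19%) lower in IRF1-guide clones. The share of all peaks called lower was 2.19%. The CEACAM and junction lists had 0 such peaks, and 0 peaks of the 4 lists were higher (against 0.238%).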

How the data were processed

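H3K27ac was measured in 8 libraries of 4 CFPAC1 clones. Bowtie2 and the build GRCh38 (hg38) are named in the submitters' processing notes; the peak caller, counter and scaling method are not stated in the labels. The deposited table gives 1 score per peak and library, a peak count that the authors normalised and rounded, so no count model was used and the depth in reads is unknown. Score totals per library were 3277561 to 3460390.

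Scores were analysed as log2(score + 1) with limma 3.58.1 in R 4.3.3 (group-means model of 4 groups, empirical Bayes with a mean-variance trend, Benjamini-Hochberg adjustment over 31961 peaks, calls at adjusted p under 0.05). No filter on low values was applied. Genotypes over both treatments were compared on clone means. Libraries of the same clone form pairs; their deviations from group means correlated across peaks at 0.392 in IRF1-guide clones and 0.437 in control clones, and a fit with the clone as a block is given beside each result it changes. The fits were also run on simulated scores without differences between clones, which cannot decide between the group-means and the clone-block fit. Replicates are clones, so p-values measure the spread between these libraries. Start sites inside peaks that name another gene were rebuilt from the table's distances or from RefSeq.

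The members, gene lists, motifs and tests were chosen with earlier results of these data known. All 10 members are named, with up to 4 called genes of largest log2 change per other list, RSAD2, ISG15, GAPDH and ACTB for reference, and marker genes. Some list genes and 1 motif are not reported here. Alternatives were another pseudocount (5), a mean score of at least 20, quantile normalisation, no variance trend, a 10 kb window, and leaving out each library.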

Additional observations from a re-analysis of the deposited data

How the results depend on the processing

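For hIFNb over all clones, 4 of the 26 peaks passed; 2 passed with a mean score of at least 20, 1 without the variance trend (the MUC13 rise, so that the 3 falls were lost), 14 with the clone as a replicate block, and 0 to 5 when 1 library was left out (0 without the hIFNb library of clone 11 or of clone 4, 5 without that of clone 13). In control clones 1 passed, against 0 with the score filter, 0 with a 10 kb window (which drops the MUC13 peak), 13 with the replicate block, 4 with a block on the ending of the column names (an alternative chosen after seeing the data) and 0 to 0 with 1 library left out. In IRF1-guide clones 0 passed, against 6 with the replicate block. Between genotypes with hIFNb 1 passed, against 0 with the score filter (which drops the CTSE peak at 10.9 kb), 0 with the 10 kb window, 2 without the trend, 2 with the column-ending block and 0 to 1 with 1 library left out; on clone means 0 passed, against 1 with the column-ending block. Those endings share only a number, with deviations correlating at 0.099 with hIFNb and 0.091 without. No other alternative moved a count by over 1.5 times, though after quantile normalisation the single peak in control clones was that of CDH17 and not that of MUC13.

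The sign over all clones turned for 4 peaks that passed in neither fit. The CEACAM5 peak at 12.7 kb was -0.12 after quantile normalisation and -0.17 to 0.33 without 1 library, the CEACAM5 TSS peak -0.05 to 0.36, the CTSE peak at 24.4 kb -0.19 to 0.34 and the CDH1 peak at 39.5 kb -0.09 to 0.33 in those fits. The cause was not tested. The peaks at CTSE 10.9 kb, CEACAM5 12.7 kb, AGR2 39.4 kb and 49.8 kb and MUC13 have mean scores under 20, so 1 rounded unit is a larger share of their values, and each genotype has 2 clones.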
